A study of Mus musculus with 7 samples.

Results

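Transcripts of 46 genes that act in DNA replication and mitosis were followed through the growth of the mouse adrenal gland. The genes were chosen by symbol from knowledge of the cell cycle, with earlier results of these data known. Of the 46, 18 have their main role in S phase, when DNA is copied. The other 28 have theirs in G2 and mitosis (G2/M), when the copies are separated. All 46 were found among the 35976 gene symbols of the table, and all 46 were among the 16720 genes tested, which averaged 10 normalized counts or more. Whole adrenal glands from the inbred C57BL/6J strain were collected at 4 ages with no treatment named, and RNA was sequenced from 7 pools, each of which is 1 library and the only one of its group. The pools were E18.5, a day shortly before birth (40 glands, sex not determined), P1, the day after birth (16 male and 22 female glands), 2 weeks (6 male and 6 female glands) and 12 weeks (4 male and 4 female glands). A pool averages its glands, so the spread between animals was not measured, and no group had a replicate of its own.

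Replication starts when origins are licensed by loading the Mcm helicase, and it proceeds once cyclin-dependent kinases and E2F-driven genes turn the cell to S phase. Later, cyclins A and B with Cdk1 start mitosis, the Aurora and Polo kinases and the spindle checkpoint order chromosome attachment, and the anaphase-promoting complex ends it by destroying cyclin B and securin. In the adrenal gland, the outer cortex holds the progenitors that renew the steroid-producing cells, chromaffin cells of the medulla divide around birth and much less later, and proliferation slows as the gland matures. In whole-gland RNA, fewer dividing cells and less RNA of these genes per dividing cell cannot be told apart.

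The promoter windows of 5 members hold some of the sequence elements that S-phase and G2/M genes are known for. Genes of G2 and mitosis often carry a cell cycle homology region (CHR, TTTGAA), bound by the DREAM complex in resting cells and by B-Myb and FoxM1 complexes in dividing cells, together with CCAAT boxes bound by NF-Y. Genes of S phase often carry E2F sites, searched here in 4 forms, with TTCCCGC as the first, TTCGCGC as the next, then the form TTGGCGC and last the form TTGCCGC. Each window of 300 bases runs from before to just after a RefSeq transcription start in GRCm38.p6 (mm10) and is printed 5′ to 3′ on the strand of the gene, with every match on either strand in capitals. The windows are chr10:69352863-69353162 (minus strand) for Cdk1, chr13:100786437-100786736 (minus) for Ccnb1, chr7:122159185-122159484 (plus) for Plk1, chr8:75109259-75109558 (plus) for Mcm5 and chr11:98907901-98908200 (plus) for Cdc6.
Cdk1: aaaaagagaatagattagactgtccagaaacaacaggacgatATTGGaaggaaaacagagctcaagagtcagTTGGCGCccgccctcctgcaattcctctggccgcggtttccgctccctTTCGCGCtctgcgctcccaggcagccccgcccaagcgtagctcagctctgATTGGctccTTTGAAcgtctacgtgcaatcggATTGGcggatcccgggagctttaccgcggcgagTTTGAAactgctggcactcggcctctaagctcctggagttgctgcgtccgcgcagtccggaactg
Ccnb1: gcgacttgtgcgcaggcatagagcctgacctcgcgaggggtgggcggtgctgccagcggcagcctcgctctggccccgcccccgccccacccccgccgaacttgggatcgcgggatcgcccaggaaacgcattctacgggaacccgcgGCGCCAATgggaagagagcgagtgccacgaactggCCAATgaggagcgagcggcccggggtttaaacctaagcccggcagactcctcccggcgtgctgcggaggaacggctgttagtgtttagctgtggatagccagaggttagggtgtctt
Plk1: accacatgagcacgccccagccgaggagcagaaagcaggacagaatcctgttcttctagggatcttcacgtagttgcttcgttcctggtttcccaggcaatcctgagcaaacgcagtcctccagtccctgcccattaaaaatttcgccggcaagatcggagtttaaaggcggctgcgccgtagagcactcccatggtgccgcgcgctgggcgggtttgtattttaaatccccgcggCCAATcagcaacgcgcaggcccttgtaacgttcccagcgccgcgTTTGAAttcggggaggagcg
Mcm5: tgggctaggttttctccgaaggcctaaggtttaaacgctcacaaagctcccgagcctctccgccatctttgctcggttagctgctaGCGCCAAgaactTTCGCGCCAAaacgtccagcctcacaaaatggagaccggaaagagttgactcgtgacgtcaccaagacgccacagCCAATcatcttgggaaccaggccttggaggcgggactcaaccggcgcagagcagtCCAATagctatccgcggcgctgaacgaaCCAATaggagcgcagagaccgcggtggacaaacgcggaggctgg
Cdc6: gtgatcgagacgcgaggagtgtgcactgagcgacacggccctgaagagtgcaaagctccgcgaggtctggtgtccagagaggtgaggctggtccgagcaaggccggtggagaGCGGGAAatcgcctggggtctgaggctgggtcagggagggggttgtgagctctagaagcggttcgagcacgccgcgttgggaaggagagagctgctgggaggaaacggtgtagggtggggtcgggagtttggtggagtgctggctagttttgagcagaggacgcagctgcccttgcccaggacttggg
The Cdk1 window held 2 CHR matches, starting 71 and 15 bases before the transcription start, 3 CCAAT boxes and 2 E2F matches. The Plk1 window held 1 CHR match and 1 CCAAT box. In the Ccnb1 window there were 2 CCAAT boxes, 1 of them overlapping an E2F match, since the letters GCGCCAAT hold both. No CHR match was found for Ccnb1. Mcm5 had 3 E2F matches and 3 CCAAT boxes, and Cdc6 had 1 E2F match, with no CHR match in either window. The Cdc6 window lies inside the gene as annotated in GENCODE M21, which starts at 98907801.

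Promoter windows were at hand for 39 members (43 windows, since some genes have more than 1 start) and not for Mcm4, Gins2, Ccne2, Foxm1, Ccna2, Aurkb and Tpx2. The windows of Cdc6, E2f1, Kif2c and Mcm7 and the later window of Uhrf1 lay wholly inside the annotated gene. A CHR match was present in 20 of 26 windows of G2/M members (76.9%), in 2 of 17 windows of S-phase members (11.8%) and in 17.9% of the 32851 windows of all genes. E2F matches went the other way, with 11 of 17 windows of S-phase members (64.7%) and 5 of 26 of G2/M members (19.2%), against 9.57% of all windows. CCAAT boxes were found in 70.6% of S-phase and 80.8% of G2/M windows, against 37.4% of all. These are shares of windows and not of genes. The 26 G2/M windows came from 24 genes and the 17 S-phase windows from 15. Ect2 and Prc1, both G2/M members, each entered with 2 windows that overlapped for most of their length and held largely the same matches. Mcm7 and Uhrf1, both S-phase members, each entered with 2 windows that did not overlap, and every one of these held an E2F match. A match is a run of letters and not a measured binding site, and in the 100 bases before the start alone the shares were lower, at 26.9% of G2/M windows for CHR (5.77% of all windows) and 17.6% of S-phase windows for E2F (3.73% of all).

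Total reads in genes ranged from 15184210 (12-week male) to 23551289 (P1 male), so the 12-week male library was the shallowest. Y-linked transcripts go against 1 label in part. Ddx3y, Eif2s3y, Kdm5d and Uty were at most 1.76 normalized counts in the 2- and 12-week female libraries, but in the library labelled P1 female they reached 604, 242, 162 and 265, or 21.0% of their P1 male values at the median. Markers of the adrenal cortex and of chromaffin cells (9 and 6 genes, all in the table) were above 3 reads in every library. Liver markers (6 genes) summed to between 241542 and 352209 normalized counts at E18.5 and P1, to 12614 and 32883 at 2 weeks and to 412 and 406 at 12 weeks. Skeletal muscle markers (7 genes) summed to between 35117 and 131968 before 2 weeks. Their sums were 115 and 4088 at 2 weeks and 33.6 and 37.3 at 12 weeks. Fat markers (6 genes) went the other way, with sums between 2915 and 3065 before 2 weeks. They reached 44516 and 49301 at 2 weeks and 31738 and 26342 at 12 weeks. Markers of other tissues thus differed between the ages. Each age was compared over these single pools, and no postnatal pools shared both age and sex. The spread behind the postnatal p-values is what the age and sex terms leave over, with 2 residual degrees of freedom per gene. In the fit of E18.5 to P1 the spread includes the difference between the sexes.

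Both 12-week libraries lay below all 5 younger libraries for 45 of the 46 members, against 23.1% of all genes tested. All 46 members were at their highest level before 12 weeks. E18.5 was the highest library for 32 members, P1 female for 8, 2-week male for 3, P1 male for 2 and 2-week female for 1. The lowest library was 12-week male for 27 and 12-week female for 19. No share over all genes was counted for the highest and lowest libraries, so these counts describe the members alone. The gap between the lowest younger library and the higher 12-week library was at least 2-fold for 42 members (6.85% of all genes tested). It was at least 4-fold for 32 members, 27 of the 28 G2/M genes and 5 of the 18 S-phase genes, against 3.78% of all genes.

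**Figure D1:**
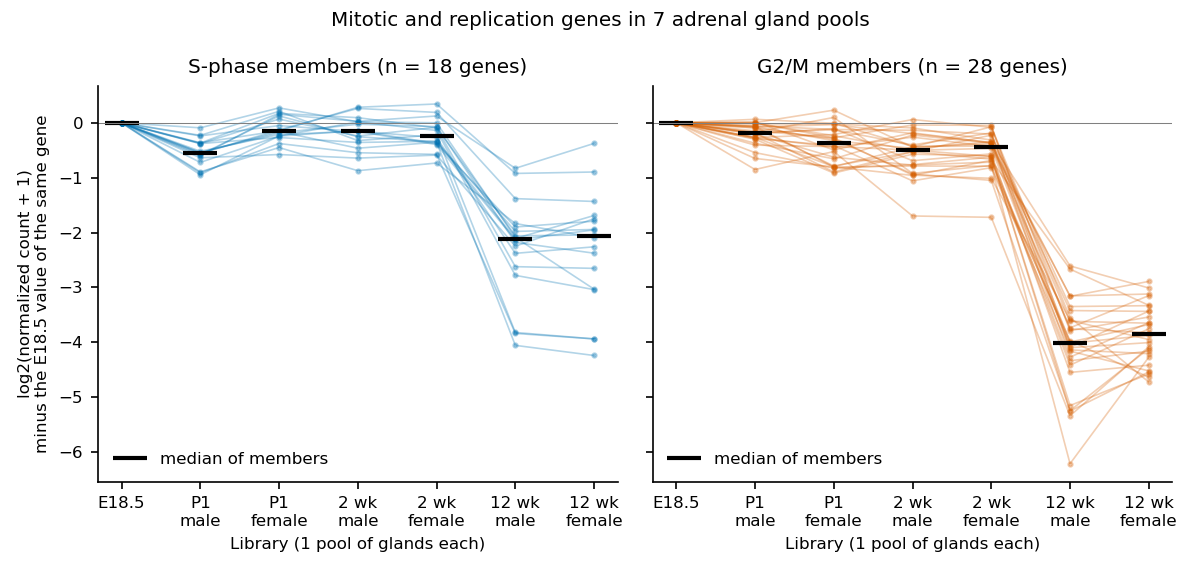
Level of each of 46 genes in 7 libraries, as log2(normalized count + 1) minus the E18.5 value of the same gene, for 18 S-phase genes (left) and 28 G2/M genes (right). Lines join the values of 1 gene, black bars are medians, and in both panels the 12-week values drop away from the 5 younger libraries, further for the G2/M genes.

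Between 2 and 12 weeks, 45 of 46 members fell (limma, Benjamini-Hochberg adjusted p under 0.05), against 9.89% of all genes tested. The fit used the 6 postnatal libraries with sex as a block, on log2(normalized count + 1), so the differences of low genes are understated. The median log2 difference over members was -3.09, and over all genes it was -0.03. From P1 to 12 weeks the count was also 45, against 23.5% of all genes, with a median of -3.36 and all 46 below 0 (51.2% of all genes). These comparisons share the 12-week libraries. When any single library was left out, all 46 members stayed below 0 between 2 and 12 weeks (52.4% of all genes were below 0 with every library in), and 35 of the 45 stayed past the threshold in every such fit. With low genes added to the test (27254 genes with a mean above 0), limma called no gene between 2 and 12 weeks, members included, while all 46 members had an unadjusted p under 0.05 there.

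The 10 genes of helicase loading and activation all fell from 2 to 12 weeks, by a median of -2.0 on the log2 scale. Mcm2, a subunit of the replicative helicase, had 2068 normalized counts at E18.5, 1401 and 1892 in P1 male and female, 2479 and 2357 at 2 weeks and 793 and 765 at 12 weeks. Its highest values were thus at 2 weeks, and the 12-week libraries kept 32.0% (male) and 32.4% (female) of them. The log2 difference from 2 to 12 weeks was -1.63 ± 0.18 (SE, limma adjusted p = 0.00302). Cdc6, which loads the helicase together with Cdt1, had 413 at E18.5, 219 and 318 at P1, 283 and 277 at 2 weeks and 27.96 and 26.02 at 12 weeks, a difference of -3.33 ± 0.26 (limma adjusted p = 0.00136). Cdc6 fell the most of these 10 genes. Cdc45, a component of the active helicase, differed least, by -1.38 ± 0.22 (limma adjusted p = 0.0112), with 262 and 272 normalized counts at 2 weeks and 85.3 and 121 at 12 weeks. Between these lay Mcm5 (-2.64), Cdt1 (-2.57), Mcm3 (-2.23), Mcm6 (-2.11), Gins2 (-1.89), Mcm7 (-1.76) and Mcm4 (-1.60), so the 6 subunits of the Mcm ring did not move by one amount. Without the 2-week male library, Mcm2, Mcm4, Cdt1, Cdc45 and Gins2 no longer passed the threshold, and without the 2-week female library the last 3 did not. Cdc45 was also lost without either P1 library.

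The 5 genes of DNA synthesis and nucleotide supply also fell, and they held the widest range of the S-phase genes. Pcna, the sliding clamp of the DNA polymerases, had 1621 normalized counts at E18.5, 1259 and 1465 at P1, 1972 and 2056 at 2 weeks, and 854 and 870.0 at 12 weeks. The 12-week values were still 43.3% (male) and 42.3% (female) of those at 2 weeks, a log2 difference of -1.22 ± 0.14 (limma adjusted p = 0.00409). Rrm2, the cell cycle-dependent subunit of ribonucleotide reductase, had 1109 at E18.5, 759 and 993 at P1, 804 and 867 at 2 weeks and 65.7 and 57.7 at 12 weeks. Its difference was -3.74 ± 0.20 (limma adjusted p = 0.000604), while Rrm1, the large subunit of the same enzyme, differed by -1.61 ± 0.14 (limma adjusted p = 0.00145) and kept 807 and 827 normalized counts at 12 weeks. Uhrf1, which brings DNA methylation to newly copied DNA, differed by -3.61 ± 0.20 (limma adjusted p = 0.000604). Tyms, which makes thymidylate, differed by -1.59 ± 0.23 (limma adjusted p = 0.00736). Tyms and Pcna no longer passed when either 2-week library was left out.

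Of the 3 regulators of entry into S phase, 2 fell and 1 did not pass. E2f1, an E2F activator, was the only member without a call. It had 287 normalized counts at E18.5, 188 and 319 at P1, 292 and 312 at 2 weeks, and 161 and 221 at 12 weeks. The 12-week female library was above the P1 male library, so the ages overlapped. The log2 difference from 2 to 12 weeks was -0.68 ± 0.23 (limma adjusted p = 0.0949), and after scaling all libraries to equal totals it was -0.85 and passed. Ccne1 and Ccne2, the E-type cyclins that activate Cdk2, differed from each other in size. Ccne2 had 649 at E18.5, 336 and 549.7 at P1, 656 and 589 at 2 weeks, and 93.7 and 78.1 at 12 weeks, a difference of -2.85 ± 0.28 (limma adjusted p = 0.00223). Ccne1 went from 175 and 193 to 89.5 and 74.7, a difference of -1.16 ± 0.26 (limma adjusted p = 0.0306) that was lost when any library other than 12-week male was left out.

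Both transcription factors of G2/M genes fell. Foxm1 had 459.6 normalized counts at E18.5, 480.3 and 457 at P1, 341 and 342 at 2 weeks and 33.6 and 50.9 at 12 weeks, a log2 difference of -3.02 ± 0.25 (limma adjusted p = 0.00137). Mybl2, which encodes B-Myb, had 323 at E18.5, 178 and 224 at P1, 98.7 and 97.0 at 2 weeks, and 6.99 (5 reads) and 18.1 at 12 weeks. Mybl2 was thus lower in each older pair of libraries than in any younger library. Its difference from 2 to 12 weeks was -3.00 ± 0.38 (limma adjusted p = 0.00531), no longer past the threshold without the 2-week male library.

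The 6 genes of mitotic cyclins, Cdk1 and the anaphase-promoting complex fell by a median of -3.65. Ccna2, cyclin A2, had 2233 normalized counts at E18.5, 1969.6 and 2043 at P1, 1688 and 1965 at 2 weeks, and 126 and 119.9 at 12 weeks. Every younger library was at least 13.4-fold above both 12-week libraries, and the log2 difference from 2 to 12 weeks was -3.88 ± 0.16 (limma adjusted p = 0.000393). Ccnb1, cyclin B1, had 891 at E18.5, 724 and 471 at P1, 599 and 585 at 2 weeks and 22.4 and 37.3 at 12 weeks, a difference of -4.31 ± 0.33 (limma adjusted p = 0.00118). Cdk1, the kinase both cyclins bind, had 952 at E18.5, 790.4 and 546 at P1, 701 and 729.6 at 2 weeks and 58.7 and 73.5 at 12 weeks. For Cdk1 and Ccnb1 the P1 female library was the lowest of the 5 younger ones. Ccnb2 (-4.01), Ube2c (-3.40) and Cdc20 (-3.15), the last 2 of which act in the anaphase-promoting complex pathway, fell as well, and Cdc20 differed least of the 6.

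The 7 mitotic kinases and spindle checkpoint genes all fell, by a median of -3.52. Plk1, the Polo-like kinase, had 281 normalized counts at E18.5, 249 and 300.2 at P1, 148 and 163 at 2 weeks, and 2.80 and 13.6 at 12 weeks. The 12-week male value rests on 2 reads. Its ratio to 2-week male was 0.0189, with an exact binomial 95% interval of 0.00227 to 0.0695, and the female ratio was 0.0832 (0.0422 to 0.149). These intervals hold counting error alone, because each group is 1 library with no replicate. No molecular identifiers separate copies of 1 molecule, so even the counting error may be understated. The log2 difference of Plk1 was -4.39 ± 0.48 (limma adjusted p = 0.00314), the lowest fitted value among members. In females alone it was -3.49, and Birc5 was lowest there at -4.65. Ttk, the checkpoint kinase Mps1, had 482 at E18.5, 331 and 272 at P1, 284 and 312 at 2 weeks and 12.6 (9 reads) and 19.2 at 12 weeks, and the gap of 14.1-fold between the lowest younger and the higher 12-week library was the widest among members. Bub1b, the checkpoint protein BubR1, differed least of the 7, by -2.53 ± 0.18 (limma adjusted p = 0.00100), and kept 168 and 127 normalized counts. Birc5, survivin, and Aurkb belong to 1 protein complex and differed by -3.88 and -3.49, Bub1 by -3.52 and Aurka by -2.96.

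Genes of the spindle (6), the centromere (3) and cytokinesis (2) all fell. Kif11, the motor that pushes spindle poles apart, had 1689.6 normalized counts at E18.5, 1463 and 1094 at P1, 990.1 and 1028 at 2 weeks, and 103 and 114 at 12 weeks, a log2 difference of -3.20 ± 0.20 (limma adjusted p = 0.000703). Kif2c, a microtubule depolymerase at centromeres, had 408 at E18.5, 382 and 332 at P1, 213 and 197 at 2 weeks and 9.79 (7 reads) and 22.6 at 12 weeks. The other spindle genes lay close together, at -3.28 (Kif23), -3.38 (Nusap1), -3.46 (Tpx2) and -3.65 (Prc1). Cenpa, the histone H3 variant that marks centromeres, had 236 at E18.5, 226 and 135 at P1, 121 and 146 at 2 weeks and 36.4 and 22.6 at 12 weeks. Its difference of -2.17 ± 0.34 (limma adjusted p = 0.00958) was the smallest of the G2/M members and did not pass without the 2-week female library or either P1 library. Cenpe and Cenpf, which act at the outer kinetochore, differed by -2.79 and -3.75. Ect2, which activates the contractile ring, had 996 at E18.5, 770.0 and 631 at P1, 853 and 770.2 at 2 weeks, and 110.5 and 134 at 12 weeks, a difference of -2.73 ± 0.20 (limma adjusted p = 0.00107), and Anln, anillin, differed by -2.79.

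The 2 genes of chromosome structure were the most abundant mitotic members by raw count. Mki67, whose protein coats mitotic chromosomes and is the antigen of the Ki-67 stain, had 16749 normalized counts at E18.5, 14589.7 and 15573 at P1, 10377 and 11310.1 at 2 weeks and 714 and 783 at 12 weeks. Each age lay below the one before without overlap, and the log2 difference from 2 to 12 weeks was -3.85 ± 0.14 (limma adjusted p = 0.000393). Top2a, the topoisomerase that untangles sister DNA, had 5501 at E18.5, 4149 and 4069.7 at P1, 3896 and 3598 at 2 weeks, and 271 and 307 at 12 weeks, a difference of -3.69 ± 0.15 (limma adjusted p = 0.000393). Per kilobase of exon, Mki67 was the highest member at E18.5, with a level of 1665 normalized counts per kb against 744 for Mcm6 and 675 for Pcna. At 12 weeks that order had turned over, with levels of 71.0 and 77.8 per kb for Mki67, 356 and 363 for Pcna and 143 and 155 for Mcm6.

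**Figure D2:**
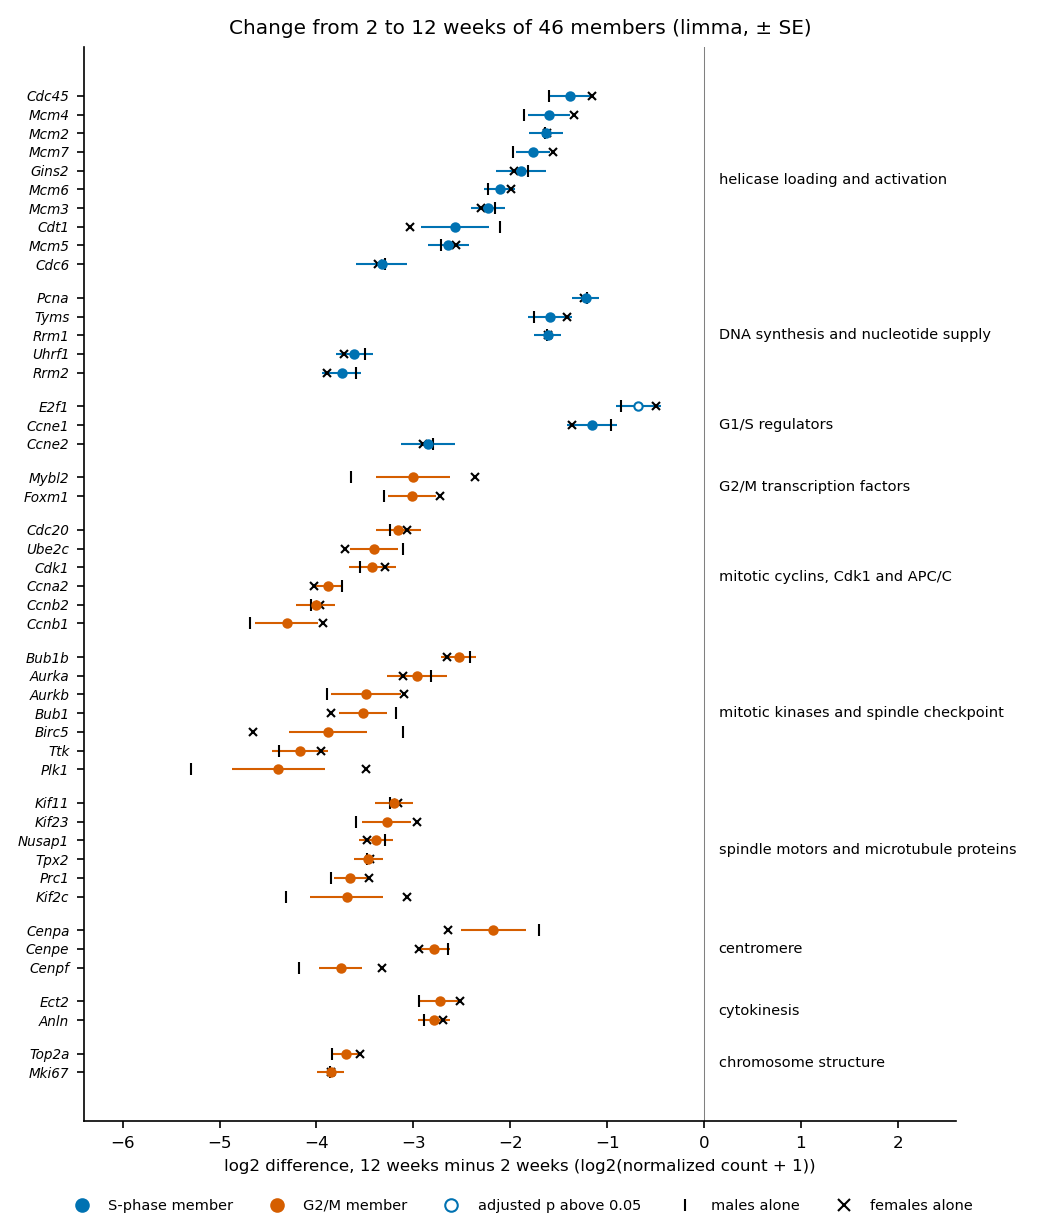
Log2 difference from 2 to 12 weeks of 46 genes by role, with the limma SE as a bar (filled, adjusted p under 0.05; open, above) and the male (tick) and female (cross) libraries alone. All 46 lie below 0, E2f1 at -0.68 nearest to 0 and Plk1 at -4.39 furthest.

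The fall was deeper for G2/M genes than for S-phase genes, as a description with no test. The median log2 difference from 2 to 12 weeks was -3.44 over the 28 G2/M members and -1.83 over the 18 S-phase members. As a share of the 2-week level, S-phase members kept a median of 26.5% in males (range 8.17 to 55.1%) and 28.8% in females (6.65 to 70.6%). G2/M members kept 8.64% in males (1.89 to 30.0%) and 10.004% in females (3.69 to 18.7%). Rrm2, Uhrf1, Cdc6, Ccne2, Mcm5, Cdt1 and Mcm3 were the S-phase genes whose values lay within the range of the G2/M genes (-4.39 to -2.17). Members with a CHR match in their window had a median of -3.34 (20 genes) and those without of -2.64 (19 genes). With an E2F match it was -2.73 (13 genes) and without -3.18 (26 genes), a split that follows the S-phase and G2/M classes.

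Summed over members, the reads of these genes were 0.356% of the library at E18.5, between 0.269 and 0.292% at P1 and 2 weeks, and 0.0377 and 0.0386% at 12 weeks. Scaled to the total reads of each library as CPM, S-phase members gave 1143 CPM at E18.5, 821 and 997 at P1, 1086 and 1002 at 2 weeks and 249.6 and 252 at 12 weeks. G2/M members without Mki67 gave 1547 at E18.5, 1337 and 1158 at P1, 1195 and 1111 at 2 weeks and 93.3 and 98.4 at 12 weeks. The balance of the sums thus turned over, with more G2/M than S-phase reads in every younger library and fewer at 12 weeks. Mki67 alone took between 19.5 and 26.2% of the members' reads in the younger libraries and 8.94 and 9.28% at 12 weeks.

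Markers of other cells moved with age beside these genes, and their part in the fall was not tested. From 2 to 12 weeks the liver sum went from 12614 and 32883 to 412 and 406. The erythroid sum (8 of 9 genes in the table) was 2257 in 2-week male and 9289 in 2-week female, and 2655 and 1291 at 12 weeks. Of the 8, 3 were at or under 3 reads in each 12-week library. Neutrophil markers (7 genes) summed to 31.1 and 2049 at 2 weeks, with 4 of the 7 at or under 3 reads in the 2-week male library, and to 57.3 and 52.0 at 12 weeks. Sums of liver, erythroid, neutrophil and muscle markers were lower in the 2-week male than in the 2-week female library. Mki67 stood at 10377 and 11310.1 in these libraries, and how the sums bear on it was not tested. Cortex markers summed to 535439 and 539875 at 2 weeks and to 864744 and 1139127 at 12 weeks. Macrophage markers (6 genes) summed to 2911 and 3120 and then 7200 and 5664, and fat markers (6 genes) to 44516 and 49301 and then 31738 and 26342. The fat genes did not move together. Ucp1 went from 19373 and 21706 to 2705 and 2197, and Cidea, Plin1 and Fabp4 were also lower in both sexes. Adipoq and Cfd were higher in both, with Cfd going from 5783 and 5638 to 11416 and 13114.

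From P1 to 2 weeks few members passed the threshold, which does not show that the rest were unchanged. In this comparison 1 member rose (5.89% of all genes tested did) and 1 fell (10.5%), and the median was -0.06, against 0.003 over all genes. Above 0 were 16 members (50.3% of all genes) and below 0 were 30 (49.7%). Pcna rose, with 1259 and 1465 normalized counts at P1 and 1972 and 2056 at 2 weeks, a log2 difference of 0.57 ± 0.14 (limma adjusted p = 0.0420). Cenpe fell, from 1388 and 1270.5 to 793 and 761, a difference of -0.77 ± 0.17 (limma adjusted p = 0.0281). The 2 ages did not overlap for either gene, but neither call was kept when any P1 or 2-week library was left out. Mcm2 was 0.57 higher and Mki67 0.48 lower without passing (limma adjusted p = 0.0758 and 0.0632), and Mybl2 differed by -1.02 (limma adjusted p = 0.1225).

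The overlap of the P1 and 2-week libraries was read for each class of genes, as a description with no test. Both 2-week libraries were below both P1 libraries for 16 G2/M members and no S-phase member, where 34.5% of all genes tested did so. Both were above P1 for 4 S-phase members (Mcm2, Mcm3, Pcna and Ccne2) and 2 G2/M members (Prc1 and Ect2), where 33.4% of all genes did so. The values of the male and female libraries differed, and that difference was not tested. In males 2 of 18 S-phase and 25 of 28 G2/M genes were lower at 2 weeks (50.4% of all genes were), with medians of 0.35 and -0.31, and in females 14 of 18 and 16 of 28 were (50.6%), with medians of -0.14 and -0.07. Without the P1 male library the gap between the S-phase and G2/M medians was -0.05, against 0.20 with it. Over the same interval the liver sum went from 352209 and 241542 to 12614 and 32883 and the erythroid sum from 21218 and 23353 to 2257 and 9289, and their part in these differences was not tested.

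No member passed a test between E18.5 and P1, although most values were lower after birth. From E18.5 to P1, 43 of 46 log2 differences were below 0 (46.8% of all genes were), with a median of -0.29 against 0.03 over all genes. In limma 0 of 46 passed (0.00598% of all genes, 1 gene, did), and 3 (Bub1, Ect2 and Top2a) had an unadjusted p under 0.05, as did 2322 of the 16720 genes tested, a larger share. On the recovered reads edgeR called 0 members. The lone E18.5 library was assumed to vary like the postnatal ages. E18.5 was above both P1 libraries for 36 members, 24 of the 28 G2/M and 12 of the 18 S-phase genes, against 34.1% of all genes. Bub1 had the lowest value, -0.73 ± 0.31 (limma adjusted p = 0.359), with 672 normalized counts at E18.5 and 428 and 384 at P1. The male and female P1 libraries differed in which genes stood below E18.5. In P1 male all 18 S-phase genes were lower (median -0.54, with 47.3% of all genes lower), and in P1 female 12 were (median -0.15, with 46.3% of all genes lower). The G2/M medians were -0.18 and -0.37. From E18.5 to P1 male and P1 female, erythroid markers went from 40308 to 21218 and 23353, cortex markers from 620982 to 430391 and 258108, skeletal muscle markers from 35117 to 70987 and 131968, kidney markers from 1288 to 9039 and 2476, and pancreas markers (6 genes) from 19.3 to 2847 and 38.6. Their part in these values was not tested.

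Male and female libraries were compared over the 3 postnatal ages in 1 fit, and no member passed (limma, 0 of 46, none with an unadjusted p under 0.05, edgeR 0). Of all genes, 0.00598% passed, and 0 were called higher in males. The Y-linked Ddx3y, Eif2s3y, Kdm5d and Uty thus did not pass as higher in males either. For that reason the fit cannot show that members were alike between the sexes. Male minus female, 17 members were above 0 (48.7% of all genes) and 29 below (51.3%), with a median of -0.06, and the largest difference was -0.78 ± 0.39 for Plk1 (limma adjusted p = 0.999).

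At single ages no test was possible, and ratios between 2 libraries are given with exact binomial 95% intervals. At P1 all 18 S-phase members were lower in the male library (52.4% of all genes were), with a median log2 difference of -0.44, and 17 of them beyond counting error (29.4% of all genes tested were lower to that degree). Of the 28 G2/M members, 21 were higher in the male library (47.6% of all genes were), with a median of 0.17, and 14 of them beyond counting error (24.2% of all genes). E2f1 stood at 188 normalized counts in the male and 319 in the female library, a ratio of 0.590 (0.494 to 0.704). Mcm4 had 1006 and 1642, a ratio of 0.612 (0.567 to 0.661). These and Ccne2 were the 3 members at least 1.5-fold lower in males, as 9.58% of all genes were.

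In the other direction 4 members were at least 1.5-fold higher in P1 male, as 9.6% of all genes were. Ccnb1 had 724 in male and 471 in female, a ratio of 1.54 (1.37 to 1.73), and Aurka 277 and 170.0, a ratio of 1.63 (1.34 to 1.98). Aurkb and Cenpa had ratios of 1.64 and 1.68. Mki67, Plk1, Birc5 and Mybl2 were G2/M genes that were lower in P1 male beyond counting error. Outside the 46 genes, 32 of 42 other replication genes were lower in P1 male (median -0.18, with 52.4% of all genes lower). Of 55 other mitosis genes, 41 were higher (median 0.10, with 47.6% of all genes higher). With libraries scaled to equal totals, 17 of 18 S-phase genes were lower and 24 of 28 G2/M genes higher, and with upper-quartile scaling 16 and 25. These scalings also moved the median over all genes, from -0.02 to 0.06 with equal totals and 0.12 with upper-quartile scaling.

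The 2 P1 pools also differed in markers, and in the Y-linked transcripts of the library labelled female. Cortex markers summed to 430391 in the male and 258108 in the female pool, chromaffin markers to 46086 and 91170, liver to 352209 and 241542, kidney (8 genes) to 9039 and 2476, skeletal muscle to 70987 and 131968, and Schwann cell markers (5 genes) to 1440 and 5219. The part of these in the difference between the 2 pools was not tested, and with 1 pool of each sex the sex and the pool cannot be told apart.

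At 2 weeks no member differed by 1.5-fold between the sexes (2.76% of all genes were that much higher and 7.31% lower in males). The medians were 0.02 for S-phase and 0.00 for G2/M genes, and 10 of 18 and 15 of 28 were higher in the male library (48.9% of all genes higher, 50.8% lower). Beyond counting error, 11 members were higher in 2-week male (15.5% of all genes), with Mcm7 at the highest ratio (1301 and 1102, ratio 1.18, 1.09 to 1.27). Another 5 were lower (17.2% of all genes), with Birc5 at the lowest ratio (261 and 337, ratio 0.773, 0.662 to 0.903). At 12 weeks 4 members were at least 1.5-fold higher in males (12.8% of all genes) and 8 were lower (9.63%). Beyond counting error, Cdt1, Birc5 and Bub1b were higher in 12-week male (24% of all genes were), with Birc5 at 29.4 in male and 12.4 in female (ratio 2.36, 1.09 to 5.42). Mcm4, Cdc45, E2f1, Plk1, Kif23 and Cenpf were lower (22.5% of all genes), with Cenpf at 148 and 229.7 (ratio 0.645, 0.505 to 0.820). The median over G2/M members was -0.14 at 12 weeks, with 10 of 28 higher in males (52.2% of all genes) and 18 lower.

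**Figure D3:**
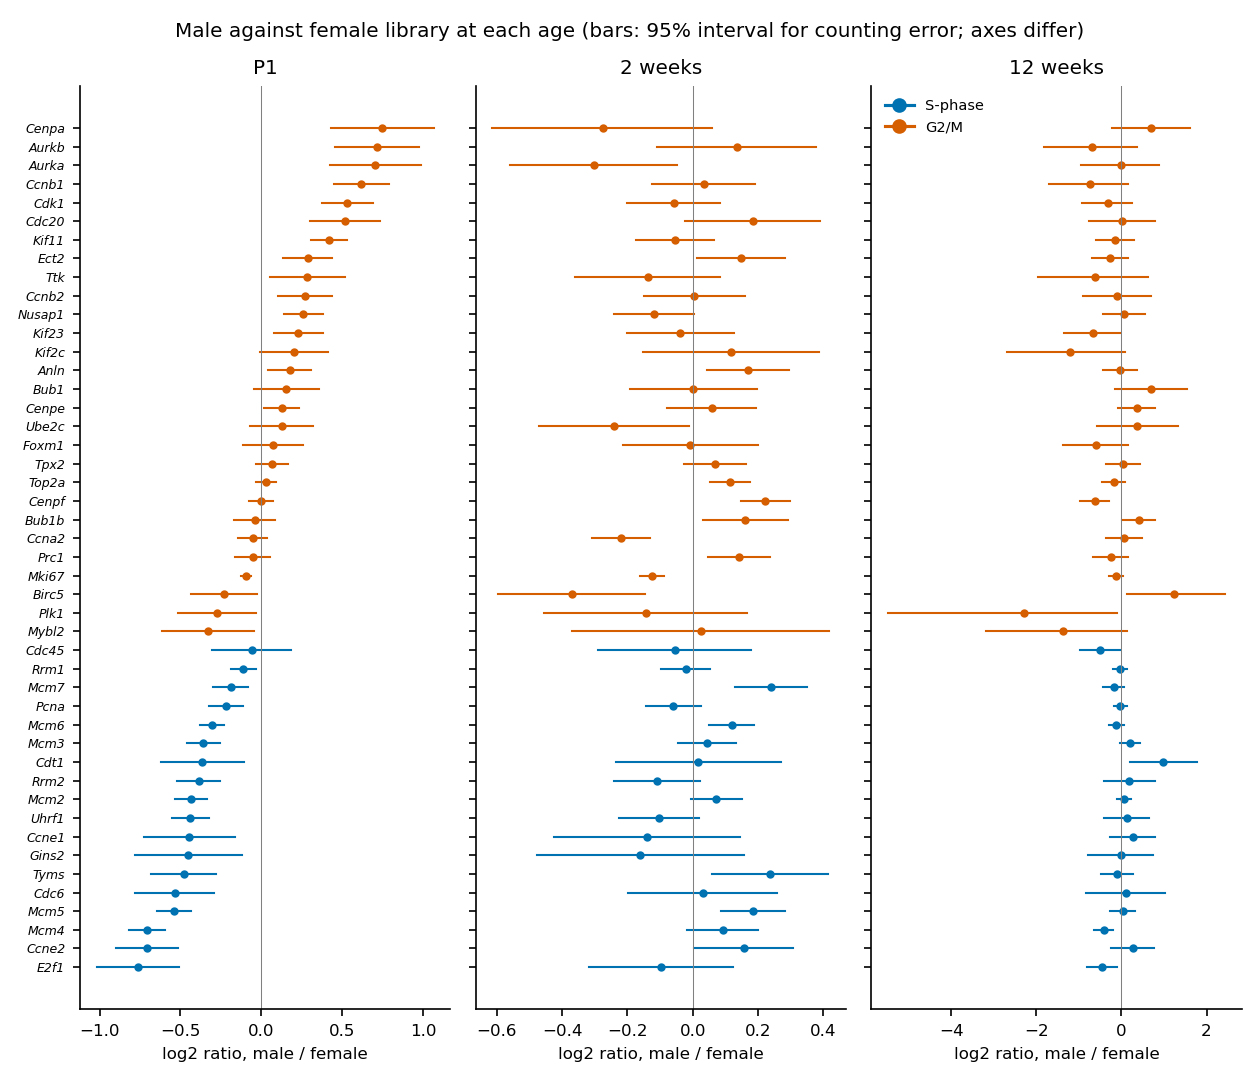
Log2 ratio of the male to the female library for 46 genes at P1, 2 weeks and 12 weeks (1 library each, x axes differ), with 95% exact binomial intervals for counting error. At P1 all 18 S-phase genes (blue) lie left of 0 and 21 of 28 G2/M genes (orange) right of it, and at 2 and 12 weeks both classes straddle 0.

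Other cell cycle genes were followed in 5 lists, also chosen with earlier results of these data known, to set these genes in their pathway. From 2 to 12 weeks, 27 of 42 other replication genes fell and 1 (Orc4) rose, 50 of 55 other mitosis genes fell and none rose, and 14 of 16 DNA damage and repair genes of cycling cells fell, where 9.89% of all genes fell and 5.4% rose. Medians were -1.30, -2.90 and -1.82. Orc1, the regulated subunit of the origin recognition complex, differed by -2.95 and Tk1, the S-phase thymidine kinase, by -3.75, and Gmnn, the licensing inhibitor geminin, by -1.47 (limma adjusted p = 0.00573, 0.00147 and 0.0129). Mad2l1, the checkpoint protein Mad2, fell by 1.91 and Chek1, the replication checkpoint kinase, by 1.87 on the log2 scale. Of these 5, Tk1 alone passed with any single library left out, and the other 4 were lost without at least 1 of the 2-week libraries. Pttg1, securin, did not follow the others. It had 389.9 normalized counts at E18.5, 418 and 429 at P1, 593 and 652 at 2 weeks and 797 and 811 at 12 weeks, with a difference of 0.37 from 2 to 12 weeks that did not pass (limma adjusted p = 0.154) and of 0.92 from P1 to 12 weeks that did (limma adjusted p = 0.00456).

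Genes that act in G1 and at its exit moved less and in both directions. The list of 24 G1 cyclins, Cdks and pocket proteins also held E2F, Lin and Myc genes, Skp2 and Fzr1. Of the 24, 6 fell (9.89% of all genes did) and 2 rose (5.4%) from 2 to 12 weeks, with a median of -0.34. E2f8, an E2F repressor that is itself made in S phase, differed by -3.63 (limma adjusted p = 0.00238). Ccnd1, cyclin D1, had 2936 and 2727 normalized counts at 2 weeks and 3374 and 3816 at 12 weeks, a difference of 0.34 that did not pass (limma adjusted p = 0.164). Ccnd2, cyclin D2, rose from 8568 and 8044 to 13015 and 13788, by 0.69 ± 0.16 (limma adjusted p = 0.0347), a call lost when any single postnatal library was left out and with equal totals. Cdk4 (-0.40) and Myc (-0.29) did not pass (limma adjusted p = 0.134 and 0.315). Ccnd1, Ccnd2 and Cdk4 thus stayed at levels of at least 1629 normalized counts at 12 weeks, where Cdk1 and Ccnb1 were at most 73.5, without scaling to gene length. Of the other Cdks of the list, Cdk2 went from 431 and 416 to 183 and 175, and Cdk6 from 1447 and 1475 to 836 and 1113. Ccnd3 was lower at 12 weeks in males and higher in females.

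Among 14 tested Cdk inhibitors and quiescence genes (of 15 listed), 3 fell (9.89% of all genes did) and 1 rose (5.4%) from 2 to 12 weeks, with a median of -0.17. Cdkn1a, p21, went from 241 and 320.2 to 108 and 164 normalized counts, a difference of -1.06 that did not pass (limma adjusted p = 0.0547). Cdkn1c, the imprinted inhibitor p57, had 23869 at E18.5, 22054 and 18152 at P1, 8871 and 7908 at 2 weeks, and 2209 and 7687 at 12 weeks. Its 12-week libraries were far apart, and the difference from 2 to 12 weeks did not pass (-1.02, limma adjusted p = 0.196), while that from P1 to 12 weeks did (-2.28, limma adjusted p = 0.0107), though not without either P1 library. Cdkn2c, p18, had 192 at E18.5, 209 and 239.5 at P1, 509 and 544 at 2 weeks and 562 and 812 at 12 weeks. It rose from P1 to 2 weeks by 1.23 ± 0.19 (limma adjusted p = 0.00922), a call lost when any P1 or 2-week library was left out.

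**Figure D4:**
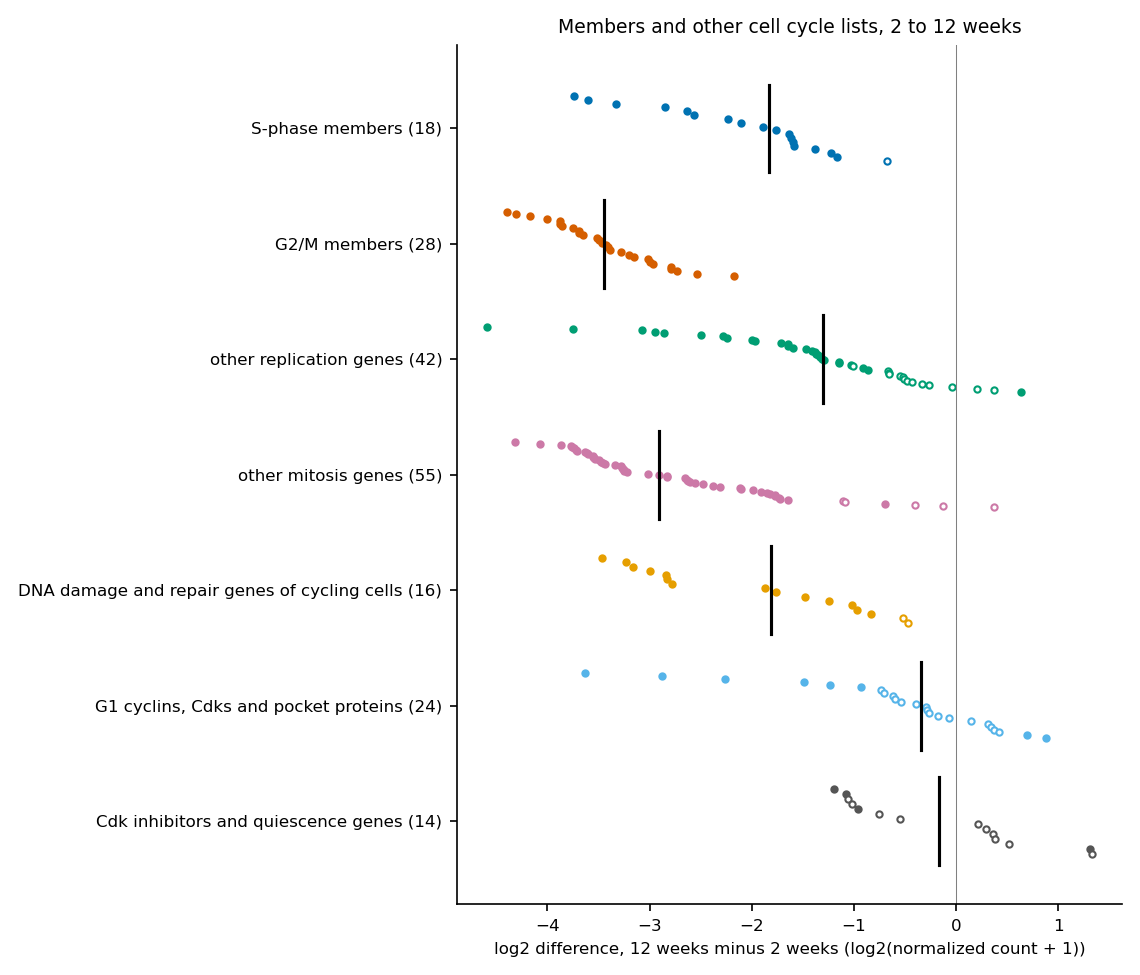
Log2 difference from 2 to 12 weeks (limma, 6 postnatal libraries) of the 46 genes and of 5 lists of other cell cycle genes, 1 point a gene (filled, adjusted p under 0.05; open, above) with the median as a bar. Medians lie at -3.44 for G2/M and -1.83 for S-phase genes, -2.90 for other mitosis and -1.30 for other replication genes, and near 0 for G1 regulators (-0.34) and Cdk inhibitors (-0.17).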

How the data were processed

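RNA was extracted by a guanidinium thiocyanate method and sequenced as standard Illumina libraries in 1 run and lane, per the labels' protocols and descriptions. Per the submitters' processing notes, CASAVA 1.8.2, HISAT2 2.1.0, HTSeq 0.9.1, DESeq2 2.11.40.6 and mm10 were used. The annotation and the strand setting are not given in the sources used here, so reads of overlapping genes, antisense genes or near-identical copies could not be told apart. The authors deposited 1 table of normalized counts, a signal of whole reads divided by 1 size factor per library. Every value (100% within 0.01 reads) was a whole multiple of 1 step, and the median ratio over 18040 genes gave the same size factors, so reads were recovered.

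Genes with a mean of at least 10 were tested on log2(normalized count + 1) with limma 3.58.1 (lmFit, eBayes with trend) in R 4.3.3, two-sided, Benjamini-Hochberg threshold 0.05. Postnatal ages and sex were fitted on 6 libraries with age and sex terms, and E18.5 to P1 on 7 libraries with age alone. The main model is limma and not a count model because the deposited unit is normalized. edgeR 4.0.16 (quasi-likelihood) on the recovered reads was an alternative, which called 2441 genes for 2 to 12 weeks, 6781 for P1 to 12 weeks, 2854 for P1 to 2 weeks and 1 each for E18.5 to P1 and for sex. Single libraries were compared by ratios with exact binomial 95% intervals and a 1.5-fold mark. No age group had replicates of 1 sex, and nothing pairs pools.

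Named genes are the members, with library values for at least 1 per role, for members under 10 reads in a library and for calls that differ from their role, plus 15 genes chosen from the 5 lists, 1 of which is not reported here. Orc4, Cdk2, Cdk6, Ccnd3, Skp2 and Fzr1 were named after their values were seen. The members, lists and motifs were chosen with earlier results of these data known. Promoters came from RefSeq (GRCm38.p6) and exon lengths from GENCODE M21, both of the mm10 build. Alternatives were pseudocounts of 0.1 and 5, other filters and scalings, no trend, no sex term and each library left out. Scripts were tested on simulated data.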

Additional observations from a re-analysis of the deposited data

Results flagged for a closer look

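The median over the 28 G2/M genes changed sign between ages in the comparison of the male with the female library. At P1 it was 0.17 on the log2 scale (21 genes higher in the male library, 7 lower), and at 12 weeks it was -0.14 (10 higher, 18 lower). The difference between the ages was not tested, since each value comes from 1 library of each sex. At 12 weeks 4 of the genes were under 10 reads in the male library, and at P1 the library labelled female held Y-linked transcripts at a median of 21.0% of the male level. The part of either in the values was not tested.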

How the results depend on the processing

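Of the values of single genes under the alternatives, 2057 kept direction and side of the threshold, 138 no longer passed, 20 newly passed and 1 turned over. The last was E2f1 from E18.5 to P1 without P1 male (0.15, and -0.60 without P1 female, against -0.22 with every library). Of the 138, 71 came from leaving out a library and 60 from testing every gene with a mean above 0. That filter called 0 genes from 2 to 12 weeks (6036 at an unadjusted p under 0.05, limma) and 0 members lower (46 unadjusted). It also called 0 genes from P1 to 2 weeks (6431 unadjusted, members 0 lower and 0 higher), 0 from E18.5 to P1 (3795) and 0 by sex (783), and the cause was not tested. edgeR called 45 members lower from 2 to 12 weeks, 45 from P1 to 12 weeks and 1 from P1 to 2 weeks.

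Without the trend in eBayes, 1661 genes were called from 2 to 12 weeks (2557 with it), 1672 from P1 to 2 weeks (2737 with it, members 0 lower and 0 higher), 2 from E18.5 to P1 and 0 by sex (638 unadjusted). Without the sex term 2 members were lower at 2 weeks than at P1, and with upper-quartile scaling 0 were higher. Equal totals called 647 genes higher and 2515 lower from 2 to 12 weeks, against 903 and 1654 with the deposited scaling, with an all-gene median of -0.20. The causes were not tested. With 1 library left out, genes called ranged from 421 to 3035 from 2 to 12 weeks (421 without 2-week female, 532 without 2-week male, 1025 without P1 female, 994 without P1 male), from 3207 to 6271 from P1 to 12 weeks, from 2 to 4461 from P1 to 2 weeks, from 1 to 2 from E18.5 to P1 and from 0 to 51 by sex. Members called lower ranged from 36 to 45 from 2 to 12 weeks, from 42 to 45 from P1 to 12 weeks and from 0 to 4 from P1 to 2 weeks, and higher from 0 to 2 in the last. In those fits the age with 1 library left is assumed to vary like the others. E18.5 could not be left out of its own comparison.

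The gap between the S-phase and G2/M medians from 2 to 12 weeks was 1.62, and 1.37 without 12-week male. From P1 to 2 weeks it was 0.20, and -0.05 without P1 male, and from E18.5 to P1 -0.10, and 0.22 without P1 male. No paired analysis was possible because each group is 1 library and the labels carry no replicate numbers. In 12-week male 4 G2/M genes had under 10 reads, which limits what sex difference could be detected in them.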
